A study of Mus musculus with 15 samples.

Results

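The genes described here are 9 genes that mark the later stages of B cell life: Cr2 and Fcer2a of mature follicular B cells, Bcl6 and S1pr2 of germinal centre B cells, Icosl and Slamf1 of contact with T cells, and Irf4, Prdm1 and Sdc1 of plasma cells. They were taken by name from the 23329 genes counted in each tumor, with earlier results of these tumors known, so that their direction is not independent evidence, and 8 of the 9 had enough reads to be among the 14880 genes tested. RNA from 15 mouse tumors was sequenced, 1 library per mouse, and the tumors are named as the authors label them. The EμMyc group held 4 lymphomas and the EμMyc/Casp2-/- group held 3, all from cervical lymph nodes of mice in which an immunoglobulin heavy chain enhancer drives Myc in B cells. The Th-MYCN and Th-MYCN/Casp2-/- groups held 4 paraspinal thoracic neuroblastomas each, driven by MYCN under the tyrosine hydroxylase promoter and picked for few or no blood vessels. The lymphoma mice were C57BL/6 and the neuroblastoma mice Sv129/C57BL6. The Casp2-/- groups lacked Casp2, the gene of caspase-2, a protease of cell death and stress responses. Lymphomas arose between weeks 13 and 19 where Casp2 was intact and between weeks 8 and 12 where it was deleted, without overlap, so an effect of age at onset and one of genotype cannot be told apart. Neuroblastomas arose between weeks 10 and 21 (Th-MYCN) or 15 and 24 (Th-MYCN/Casp2-/-). A further EμMyc/Casp2-/- tumor that the study removed is not analysed here.

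A naive B cell that meets antigen in a lymph node can enter a germinal centre, where it divides, mutates its antibody genes and competes for help from T cells. The transcriptional repressor BCL6 holds this program in place and represses Prdm1, whose product BLIMP1 in turn shuts down B cell identity genes and, with IRF4, drives the plasma cell program. In bulk tissue, fewer cells of a type and less RNA per cell cannot be told apart, so each level below belongs to the tumor as a whole and not to a cell.

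The 250 bases upstream of the annotated starts of Bcl6, Cr2 and Fcer2a are shown because Bcl6 was the member whose upstream windows held any of the 4 motifs searched, and because Cr2 and Fcer2a shared a single high tumor. The windows come from RefSeq on GRCm38, in which each of the 9 members had an entry, and all 3 genes lie on the minus strand. Both strands were searched for CACGTG (the E-box bound by MYC, in 6.02% of 32851 such windows), ATTTGCAT (the octamer bound by OCT factors, in 1.60%), TTCNNNGAA (a core shared by STAT and BCL6 sites, in 7.02%) and the ETS-IRF composite element (in 2.30%). Capitals mark the matches.
Bcl6, first start, chr16:23988853-23989102: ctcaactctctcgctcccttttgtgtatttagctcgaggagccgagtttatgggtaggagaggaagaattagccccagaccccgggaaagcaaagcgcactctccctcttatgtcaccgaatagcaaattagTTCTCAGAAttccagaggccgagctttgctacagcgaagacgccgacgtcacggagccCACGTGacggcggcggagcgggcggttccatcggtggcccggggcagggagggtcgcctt
Bcl6, second start, chr16:23981284-23981533: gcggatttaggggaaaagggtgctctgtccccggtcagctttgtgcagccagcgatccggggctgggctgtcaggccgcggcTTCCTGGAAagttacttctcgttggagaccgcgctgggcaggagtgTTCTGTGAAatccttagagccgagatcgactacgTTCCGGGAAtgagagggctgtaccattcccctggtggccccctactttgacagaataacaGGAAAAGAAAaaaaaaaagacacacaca
Cr2, chr1:195176720-195176969: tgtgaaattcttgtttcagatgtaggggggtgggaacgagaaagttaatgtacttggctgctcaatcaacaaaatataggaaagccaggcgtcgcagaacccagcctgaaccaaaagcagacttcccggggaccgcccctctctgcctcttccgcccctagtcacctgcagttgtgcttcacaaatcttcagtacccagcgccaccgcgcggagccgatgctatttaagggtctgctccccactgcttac
Fcer2a, first start, chr8:3694175-3694424: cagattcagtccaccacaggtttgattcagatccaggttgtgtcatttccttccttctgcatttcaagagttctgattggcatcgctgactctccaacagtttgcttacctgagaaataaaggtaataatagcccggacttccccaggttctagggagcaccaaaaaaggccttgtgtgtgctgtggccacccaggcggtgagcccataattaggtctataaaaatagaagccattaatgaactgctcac
In the first Bcl6 window, CACGTG began 60 bases and TTCNNNGAA 118 bases before the start. In the second, TTCNNNGAA occurred 3 times, beginning 168, 122 and 88 bases before the start, and the ETS-IRF composite once, 28 bases before it. A match is a description of letters and not of binding, and the windows without a match say nothing about the factors.

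As a check of the labels, Casp2 was at 125 to 203 CPM (counts scaled to the library total and its TMM factor) in EμMyc and 51.9 to 76.1 in EμMyc/Casp2-/- lymphomas, and at 76.0 to 125 in Th-MYCN and 39.6 to 80.1 in Th-MYCN/Casp2-/- neuroblastomas. The log2 fold change was -1.35 in lymphomas (QLF FDR 0.0536, LRT FDR 0.000400, tests described below) and -0.79 in neuroblastomas (QLF FDR 0.327). Reads were summed over the whole gene, and the origin of the Casp2 reads that remained in Casp2-/- tumors was not tested. Myc was at 1238 to 1913 CPM in 6 lymphomas, 497 in EuMycC2ko215 and 4.69 to 15.6 in the neuroblastomas, and Mycn at 230 to 430 CPM in the neuroblastomas and at most 2.14 in a lymphoma. The counts used, those of 1 strand, summed to 4940464 to 17638029 reads per tumor (9845761 to 35192127 with strand ignored), so that 3 reads, taken as the floor, equal 0.173 to 0.585 CPM. As for the lymphoma label, the 10 B cell markers, Cd79a among them, summed to 2883 to 6957 CPM in every lymphoma and to 13.4 to 89.0 in the neuroblastomas, and the 8 sympathetic markers to at most 20.5 CPM in a lymphoma. EuMycC2ko215, the shallowest library, stood apart: its 14 T cell markers summed to 1622 CPM, with Cd8a at 361 and Cd3g at 103, against 55.3 to 265 in the other 6 lymphomas. It was also high for Dntt at 298 CPM and Rag1 at 357, genes of antigen receptor rearrangement in immature lymphocytes, and for the epithelial genes Krt8 at 48.0, Krt18 at 97.9 and Epcam at 15.2 CPM, which were at most 1.40, 7.22 and 2.72 in the other lymphomas. Whether this tumor held other tissue was not tested. The list of 12 early B cell genes summed to 1576 CPM in EuMycC2ko215, 933 in EuMycC2ko245, 915 in EuMyc743b and 454 to 716 in the other 4. In EuMycC2ko215 this sum includes Dntt at 298 and Rag1 at 357 CPM, so it does not mark early B cells alone there. In EuMyc743b that sum held Igll1 at 95.1 CPM, Vpreb1 at 60.0 and Il7r at 173, genes chosen after their values were seen.

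**Figure D1:**
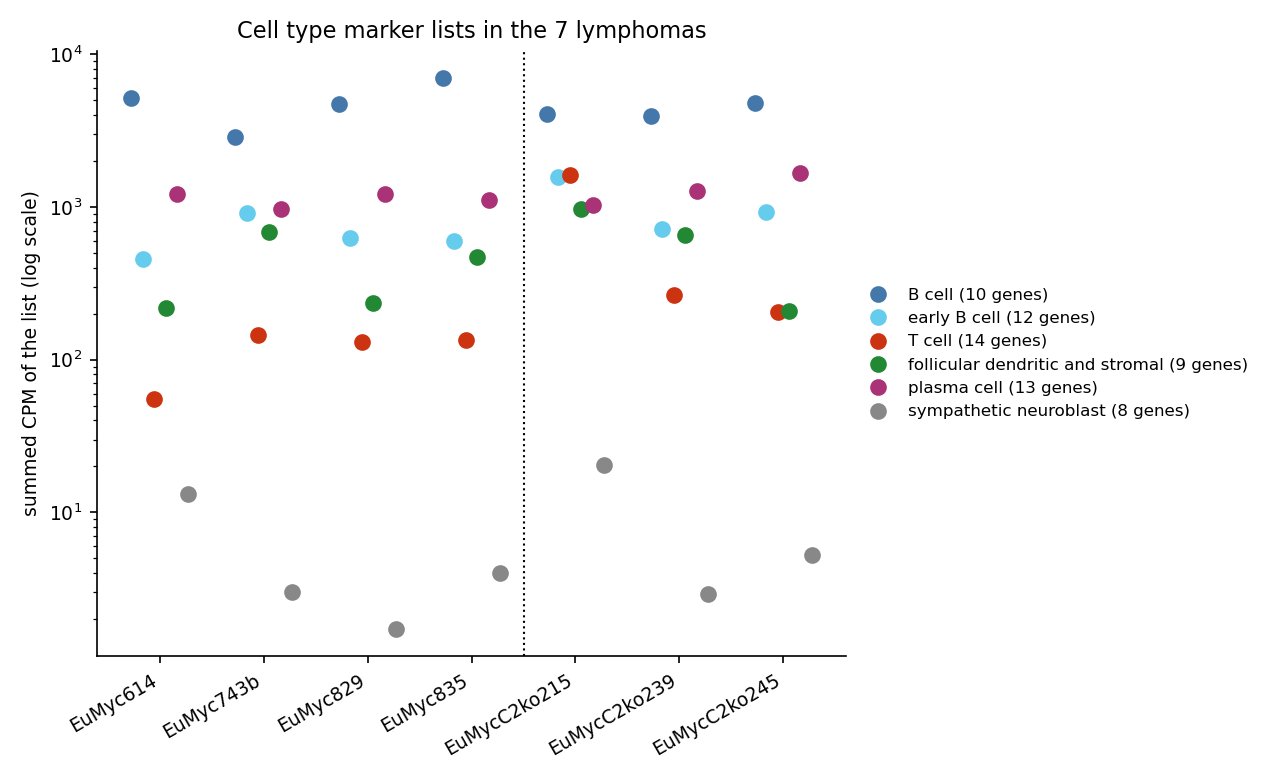
Summed CPM (log axis) of 6 cell type marker lists in each of the 7 lymphomas, EμMyc left and EμMyc/Casp2-/- right of the dotted line, with 1 point per list. The T cell list was at 1622 CPM in EuMycC2ko215 and at 55.3 to 265 in the other tumors, while the B cell list was at 2883 or more in each.

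Cr2 encodes complement receptor 2 (CD21), which binds complement fragments on antigen and is carried by mature follicular and marginal zone B cells and by follicular dendritic cells. It lies on chromosome 1 at 195136811 to 195176716 (GRCm38, minus strand). Its level in the EμMyc lymphomas was 0.612 CPM in EuMyc614, 0.0855 in EuMyc743b, 1.02 in EuMyc829 and 1.17 in EuMyc835. In the EμMyc/Casp2-/- lymphomas it was 3.51 CPM in EuMycC2ko215, 56.8 in EuMycC2ko239 and 2.32 in EuMycC2ko245. The groups did not overlap, EμMyc/Casp2-/- being the higher, and EuMycC2ko239 lay 16.2 times above the next lymphoma. In the 8 neuroblastomas the lowest, median and highest levels were 0, 0.148 and 1.73 CPM, most of them at or under the floor.

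Fcer2a encodes CD23, the low affinity IgE receptor, which mouse follicular B cells carry. It lies on chromosome 8 at 3681737 to 3694175 (minus strand). EuMycC2ko239 held 895 reads of it, or 74.6 CPM, while EuMycC2ko215 held 0 reads, which allows up to 0.585 CPM, and EuMycC2ko245 was at 0.706 CPM. In the EμMyc lymphomas it was 0 in EuMyc614, 0.171 CPM in EuMyc743b, 0.315 in EuMyc829 and 0.212 in EuMyc835. The neuroblastomas lay between 0.0964 and 1.03 CPM, with a median of 0.370. The gene passed 1 CPM in too few tumors to be tested, and EuMycC2ko239 was the single tumor with a level clear of the floor by a wide margin.

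Of all 23329 genes, 34 (0.146%) were at over 1 CPM in EuMycC2ko239 and more than 4 times the next lymphoma, and Cr2 and Fcer2a were 2 of them. In the same tumor Cxcr5, the receptor that leads B cells to follicles, was at 6.34 CPM, within the 0.855 to 17.0 of the EμMyc tumors. Gpr183 and Ccr6, migration receptors of mature B cells, were at 11.3 and 6.76 CPM there and at no more than 1.80 and 0.849 in the other lymphomas. These genes were chosen after their values were seen. Of the 9 markers of follicular dendritic cells and lymph node stroma, Mfge8 was at 221 CPM and Cxcl13 at 28.7 in EuMycC2ko239, at 443 and 47.8 in EuMycC2ko215, and at up to 163 and 22.6 in the other 5 lymphomas. Ccl21a held 0 reads in all 15 tumors, so whether the counts could capture this gene cannot be told. Ccl19 was at 1.34 to 15.2 CPM in the lymphomas. The list summed to 209 to 681 CPM in the 6 tumors other than EuMycC2ko215, which was at 969. The part of these cells in the Cr2 level was not tested. Fcer2a was at 0 in EuMycC2ko215, where that list was highest.

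Bcl6, on chromosome 16 at 23965052 to 23988852 (minus strand), was at 2.10 CPM in EuMyc614, 7.86 in EuMyc743b, 1.10 in EuMyc829 and 4.88 in EuMyc835. It was at 29.2 CPM in EuMycC2ko215, 14.8 in EuMycC2ko239 and 3.23 in EuMycC2ko245. The first pair of EμMyc/Casp2-/- tumors lay above every EμMyc tumor and EuMycC2ko245 lay among them. In the neuroblastomas the lowest, median and highest levels were 3.06, 4.39 and 9.70 CPM, a range that overlapped that of both lymphoma groups. The counts kept no strand, as described under processing, and Bcl6 overlaps the gene Gm37419 on the other strand, so reads of both cannot be told apart where they overlap. No other member overlaps an annotated gene.

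S1pr2 encodes a sphingosine 1-phosphate receptor that keeps germinal centre B cells in place, and it is also found in other tissues. It lies on chromosome 9 at 20962361 to 20976781. Its level was 5.77, 17.3, 4.33 and 6.37 CPM in EuMyc614, EuMyc743b, EuMyc829 and EuMyc835, and 13.5, 23.9 and 3.53 CPM in EuMycC2ko215, EuMycC2ko239 and EuMycC2ko245. The neuroblastomas lay within that span, at 6.91 to 11.8 CPM in Th-MYCN and 12.0 to 14.0 CPM in Th-MYCN/Casp2-/- tumors. The ranges of the tumor types overlapped, although neuroblastomas are not of B cell origin.

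Icosl encodes the ligand through which B cells engage ICOS on T cells. It lies on chromosome 10 at 78069302 to 78083913. It was at 2.45 CPM in EuMyc614, 5.21 in EuMyc743b, 1.97 in EuMyc829 and 9.55 in EuMyc835, and at 48.5 CPM in EuMycC2ko215, 38.2 in EuMycC2ko239 and 3.23 in EuMycC2ko245. As for Bcl6, the same pair of EμMyc/Casp2-/- tumors was highest and EuMycC2ko245 lay within the EμMyc range. The neuroblastomas were at 4.96 to 20.1 CPM with a median of 7.04.

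Slamf1 encodes the adhesion receptor SLAM (CD150) of activated B and T cells. It lies on chromosome 1 at 171767127 to 171801184. It was at 0.612 CPM in EuMyc614, 0.0855 in EuMyc743b, 0.866 in EuMyc829 and 2.97 in EuMyc835, and at 6.24 CPM in EuMycC2ko215, 10.8 in EuMycC2ko239 and 4.44 in EuMycC2ko245. The groups did not overlap. In the neuroblastomas it was at or under the floor, with 3 reads in all over the 4 Th-MYCN and 5 over the 4 Th-MYCN/Casp2-/- tumors. Its adaptor gene Sh2d1a, which T cells carry, was at 38.0 CPM in EuMycC2ko215 and at no more than 0.584 in the other 6 lymphomas.

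Irf4, on chromosome 13 at 30749226 to 30766976, encodes a transcription factor used in activated B cells and required for plasma cells. It was at 120, 94.2, 213 and 119 CPM in EuMyc614, EuMyc743b, EuMyc829 and EuMyc835, and at 143, 123 and 152 CPM in EuMycC2ko215, EuMycC2ko239 and EuMycC2ko245. Every lymphoma was high and the genotypes overlapped. The neuroblastomas lay between 0 and 2.38 CPM with a median of 1.08, apart from every lymphoma.

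Prdm1, on chromosome 10 at 44437177 to 44528501, was low throughout. It was at 0.525, 2.82, 1.65 and 0.637 CPM in EuMyc614, EuMyc743b, EuMyc829 and EuMyc835, and at 1.36, 2.75 and 3.03 CPM in EuMycC2ko215, EuMycC2ko239 and EuMycC2ko245. The neuroblastomas lay between 0.406 and 1.67 CPM. High Irf4 was thus measured in the lymphomas beside low Prdm1.

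Sdc1 encodes syndecan-1 (CD138), a proteoglycan used to sort plasma cells that early B cells and many epithelia also carry. It lies on chromosome 12 at 8771323 to 8793715. It was at 4.37 CPM in EuMyc614, 33.7 in EuMyc743b, 3.15 in EuMyc829 and 4.24 in EuMyc835, and at 28.7 CPM in EuMycC2ko215, 14.5 in EuMycC2ko239 and 3.23 in EuMycC2ko245. EuMyc743b and EuMycC2ko215 were highest. The 11 myeloid markers summed to 1285 CPM in EuMyc743b, 1726 in EuMycC2ko215 and 1057 in EuMycC2ko239, against 349.7 to 783 in the other 4 lymphomas. The list of early B cell genes summed highest in EuMycC2ko215, EuMycC2ko245 and EuMyc743b. The epithelial genes Krt8, Krt18 and Epcam were highest in EuMycC2ko215. The part of other cells in the Sdc1 level was not tested. The 8 neuroblastomas sat closely together at 47.6 to 60.2 CPM, above every lymphoma.

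**Figure D2:**
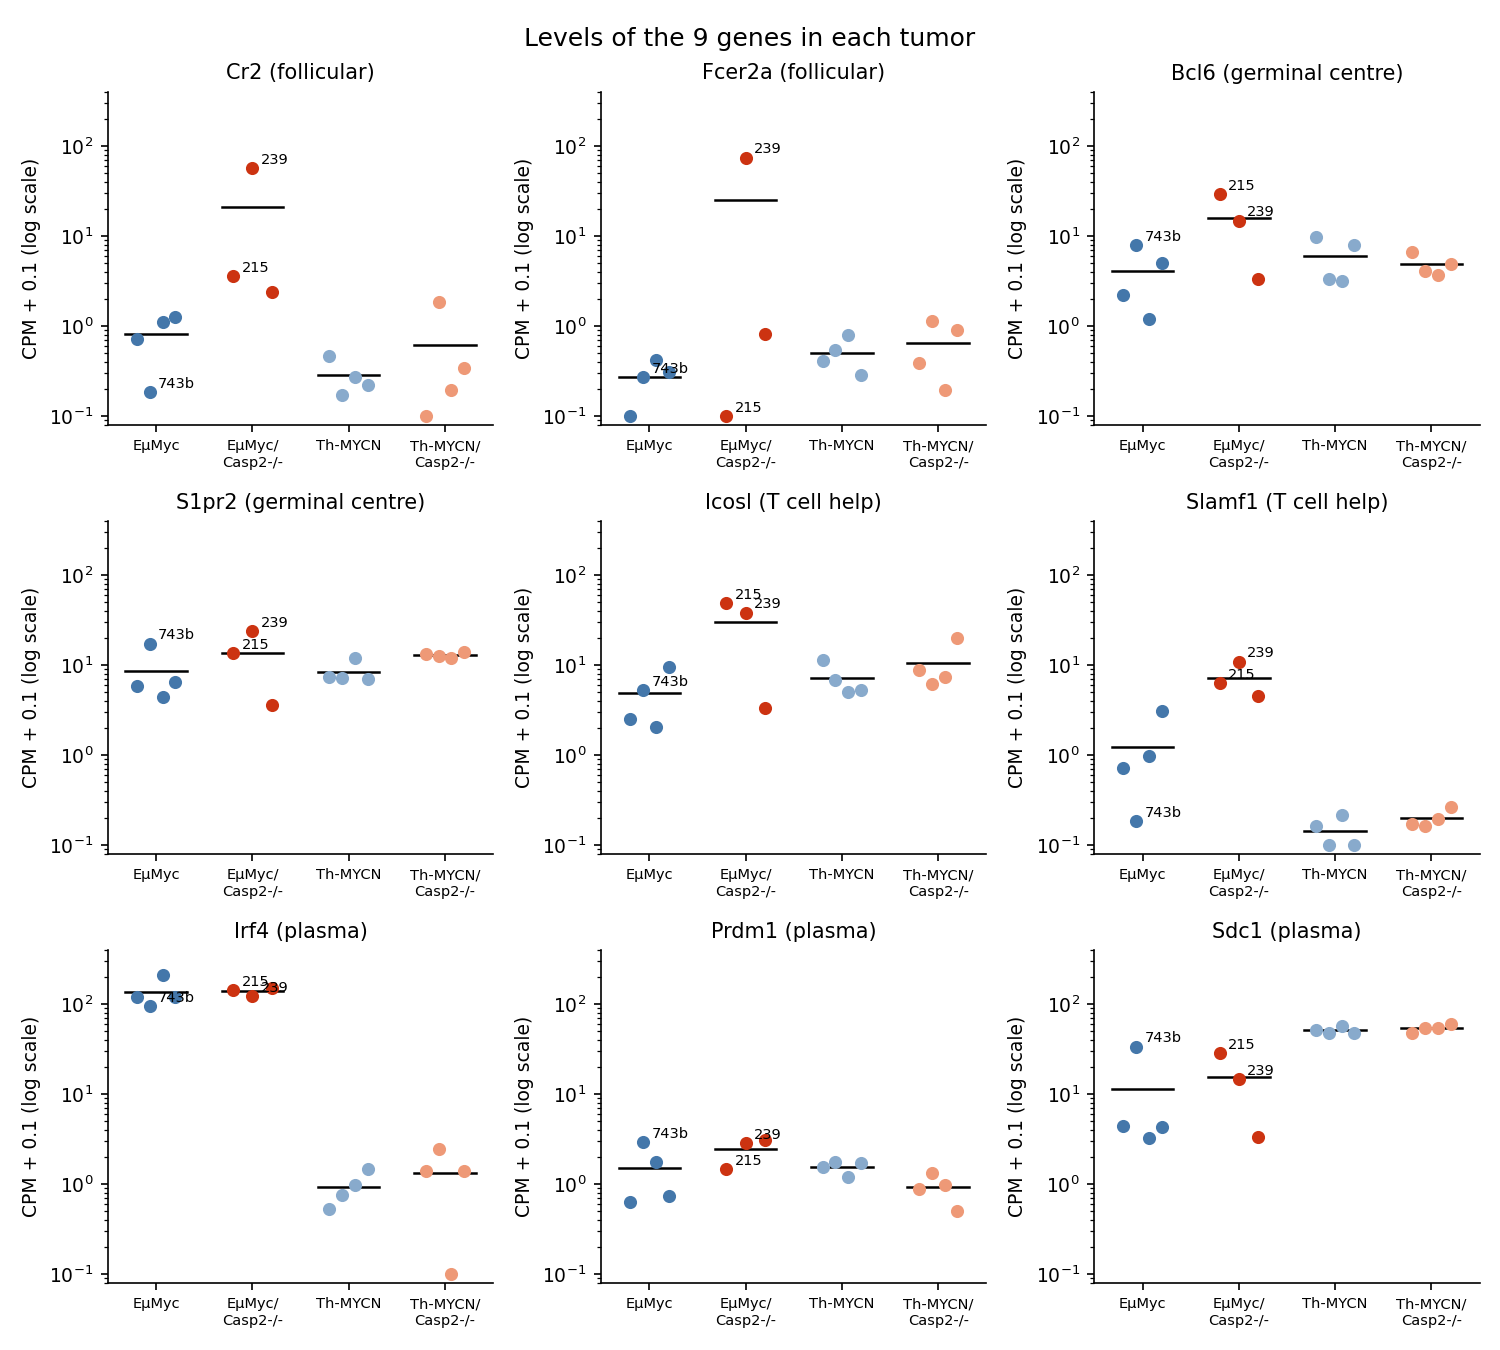
Level of each of the 9 genes in each of the 15 tumors, as CPM plus 0.1 on a log axis, with 1 point per tumor and a black line at the group mean (n = 4, 3, 4 and 4). EuMycC2ko215, EuMycC2ko239 and EuMyc743b are marked by their numbers. EuMycC2ko239 stood alone for Cr2 at 56.8 CPM and Fcer2a at 74.6 CPM, and Irf4 and Sdc1 separated the tumor types in opposite directions.

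Levels of different genes were compared per kilobase of the longest coding transcript. Over the 7 lymphomas the median was highest for Irf4 at 25.9 CPM per kb, from 19.8 to 44.6, with no overlap with any other member but Fcer2a, which reached 33.3 CPM per kb in EuMycC2ko239 alone. The medians of Icosl at 1.85, Bcl6 at 1.38, Sdc1 at 1.38, Slamf1 at 1.10 and S1pr2 at 0.996 CPM per kb followed with ranges that overlapped. Prdm1 at 0.313, Cr2 at 0.188 and Fcer2a at 0.0947 CPM per kb had the lowest medians. In the neuroblastomas Sdc1 led at 16.8 CPM per kb, from 15.1 to 19.1, followed by Icosl at 2.50, S1pr2 at 1.87 and Bcl6 at 1.24, and the other members had medians of at most 0.227.

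The comparison of EμMyc/Casp2-/- with EμMyc lymphomas asks which of these genes differ in lymphomas with loss of Casp2. By edgeR's quasi-likelihood (QLF) test none of the 8 tested members passed a Benjamini-Hochberg FDR of 0.05 and a log2 fold change of 1, where 0.141% of all genes did. At an unadjusted p under 0.05, 4 of the 8 were higher in EμMyc/Casp2-/- tumors and 0 lower, beside 5.56% and 2.97% of all genes. The groups did not overlap for 2 members, Cr2 and Slamf1, both higher, beside 1.75% of all genes. With edgeR's likelihood ratio test (LRT) 2 members passed, Cr2 and Icosl, beside 1.44% of all genes, and DESeq2 passed the same 2, beside 1.36%. All 8 log2 fold changes were above 0, with a median of 1.37 against -0.03 for all genes. The members were chosen with earlier results of these tumors known, so neither these counts nor their direction is independent evidence. The paper itself lists Bcl6, Cr2 and Slamf1 among genes higher in EμMyc/Casp2-/- tumors.

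Cr2 had the highest value, a log2 fold change of 4.85 ± 1.24 (SE, n = 3 and 4; QLF FDR 0.170, LRT FDR 0.0198, DESeq2 FDR 0.00565). Without EuMycC2ko239 it was 2.02 ± 1.11 (QLF FDR 0.461). Icosl had a log2 fold change of 2.65 ± 0.736 (QLF FDR 0.223, LRT FDR 0.0286, DESeq2 FDR 0.0167), and one of 2.13 ± 0.781 without EuMycC2ko215. For Slamf1 it was 2.68 ± 0.800 (QLF FDR 0.272, LRT FDR 0.0794) and 2.78 ± 0.857 without EuMycC2ko215. For Bcl6 it was 1.97 ± 0.705 (QLF FDR 0.392, LRT FDR 0.166) and 1.19 ± 0.730 without EuMycC2ko215. These 4 genes do not name a single stage: CD21 is a mature B cell receptor, BCL6 the germinal centre repressor, and ICOS ligand and SLAM are surface partners of T cells.

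The plasma cell members and S1pr2 passed no test. Irf4 had a log2 fold change of 0.03 ± 0.464 (QLF FDR 1.00) and Prdm1 of 0.76 ± 0.588 (QLF FDR 0.775). S1pr2 had 0.70 ± 0.538 (QLF FDR 0.777). For Sdc1 the value of 0.42 ± 0.720 (QLF FDR 0.904) hung on single tumors, at -0.34 without EuMycC2ko215 and 1.95 without EuMyc743b.

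The neuroblastoma genotype comparison served as the same contrast in tumors without B cell identity. By the QLF test, LRT and DESeq2 alike 0 of the 8 members passed, beside 0.0336%, 0.813% and 0.780% of all genes. At an unadjusted QLF p under 0.05, 0 members were higher or lower, beside 2.49% and 4.28% of all genes. S1pr2 was the member whose groups did not overlap, with a mean of 13.0 CPM in Th-MYCN/Casp2-/- and 8.30 in Th-MYCN tumors (log2 fold change 0.64 ± 0.500, QLF FDR 0.951), beside 2.96% of all genes that were higher without overlap. The other 7 ranged in log2 fold change from -0.81 for Prdm1 to 1.49 for Cr2.

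The test of whether the genotype difference itself depended on tumor type, the interaction in the same model, passed for 0 of the 8 members by the QLF test, LRT or DESeq2, beside 0.0538%, 0.914% and 0.827% of all genes. Bcl6 alone had an unadjusted p under 0.05, beside 4.93% of all genes in its direction (interaction 2.31 ± 0.957 on the log2 scale, QLF FDR 0.611). A larger genotype difference in lymphomas than in neuroblastomas was thus not shown for any member.

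**Figure D3:**
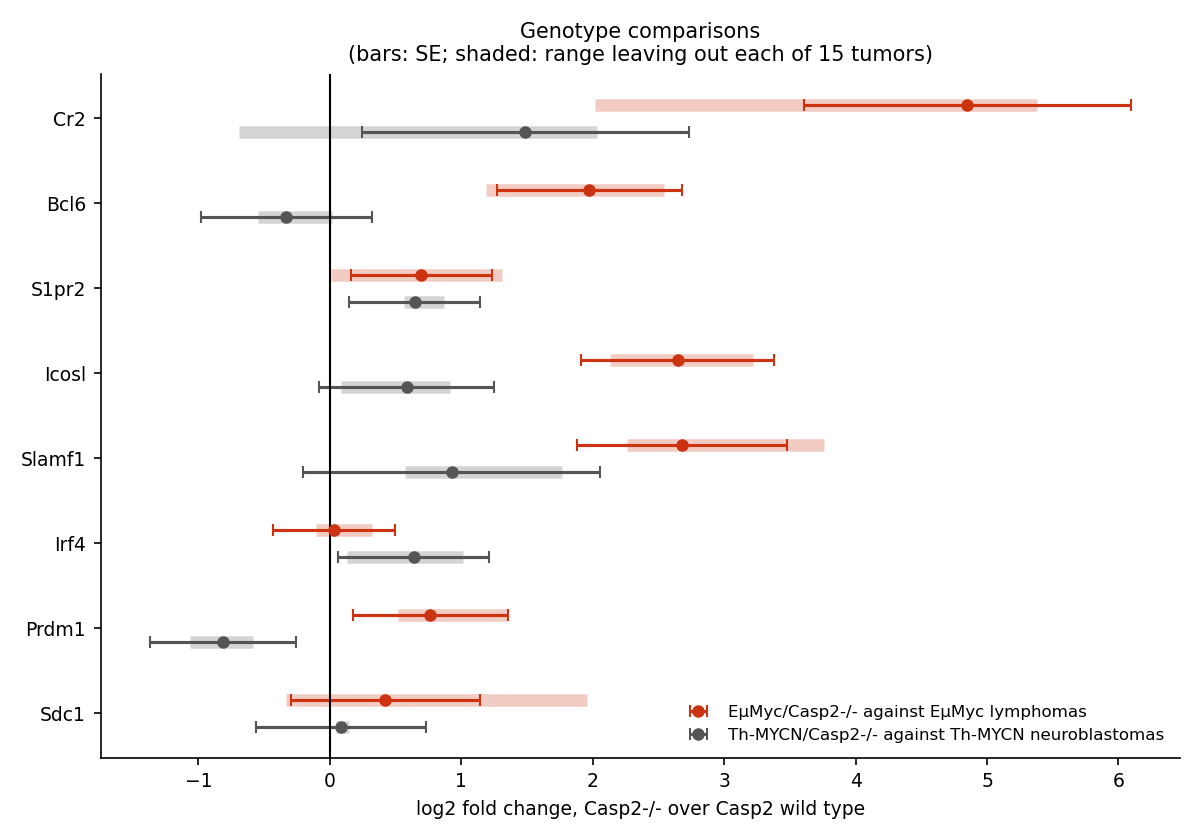
Log2 fold change of Casp2-/- over Casp2 wild type tumors for the 8 tested genes, in lymphomas (red, n = 3 and 4) and neuroblastomas (grey, n = 4 and 4), with bars for the SE and a shaded band for the range when each of the 15 tumors is left out in turn. Cr2 in lymphomas lay at 4.85 and, without EuMycC2ko239, at 2.02, and the bands of Irf4 and Sdc1 in lymphomas crossed 0.

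The tumor type comparisons show which members differed between lymphoma and neuroblastoma as bulk tissue. Tumor type, site and mouse strain differ together here, so their effects cannot be told apart. These comparisons share tumors with the genotype comparisons, so each is given with its own values. Of the 8 members, 2 were higher and 1 lower in EμMyc than in Th-MYCN tumors by the QLF test, beside 18.3% and 27.8% of all genes. Irf4 rose by a log2 fold change of 7.35 ± 0.593 (QLF FDR 5.12e-08) and Slamf1 by 4.32 ± 0.974 (QLF FDR 0.00131). The Slamf1 value rests on 47 reads against 3, a ratio in CPM of 22.1 with an exact 95% interval of 7.10 to 111 that covers counting error only, and it depends on the model's prior count. Sdc1 fell by 2.17 ± 0.683 on the log2 scale (QLF FDR 0.0125). The other 5 had log2 fold changes from -0.58 for Bcl6 to 1.89 for Cr2, and none passed.

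Between the Casp2-/- groups 5 members were higher in the lymphomas and 1 lower by the QLF test, beside 19.7% and 26.6% of all genes. Irf4 rose by 6.74 ± 0.583 (QLF FDR 1.41e-07), Slamf1 by 6.07 ± 0.975 (QLF FDR 8.06e-05) and Cr2 by 5.26 ± 1.26 (QLF FDR 0.00223). Prdm1 rose by 1.54 ± 0.596 (QLF FDR 0.0376) and Bcl6 by 1.72 ± 0.699 (QLF FDR 0.0455), both near the threshold. Without EuMycC2ko215 the Bcl6 value was 0.99 (QLF FDR 0.260) and no longer passed. Sdc1 fell by 1.83 ± 0.754 on the log2 scale (QLF FDR 0.0482). Without EuMycC2ko245 neither Prdm1 (QLF FDR 0.112) nor Sdc1 (QLF FDR 0.147) passed. Sdc1 also did not pass when any neuroblastoma was left out, or with either-strand or first-strand counts. Bcl6 also did not pass without EuMyc835, MYCN235, MYCN391 or any Th-MYCN/Casp2-/- tumor. Prdm1 also did not pass without MYCNC2ko118, MYCNC2ko176 or MYCNC2ko180, or with first-strand counts. Without EuMycC2ko239 just Irf4 and Slamf1 passed, Cr2 being at 2.49 with an FDR of 0.0709. Irf4 passed in both comparisons under every alternative run.

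**Figure D4:**
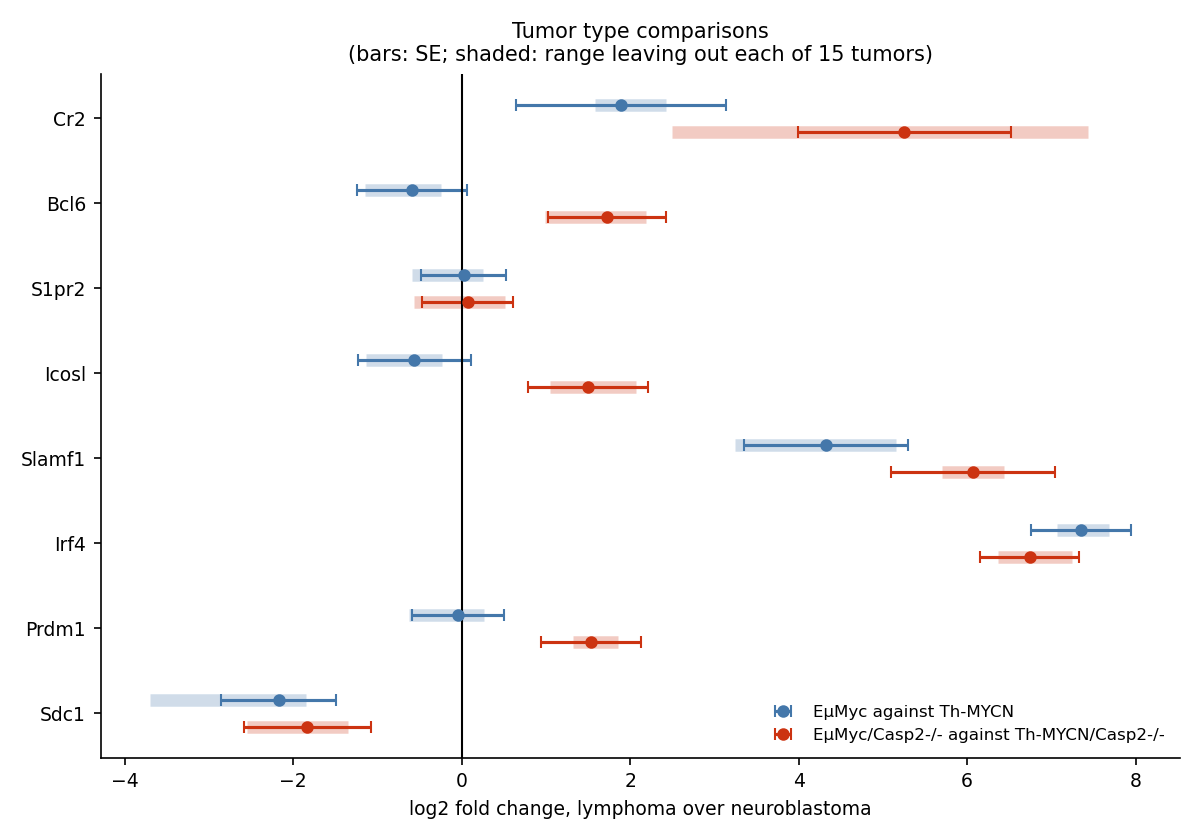
Log2 fold change of lymphoma over neuroblastoma for the 8 tested genes, in Casp2 wild type tumors (blue, n = 4 and 4) and Casp2-/- tumors (red, n = 3 and 4), with bars for the SE and a shaded band for the range when each of the 15 tumors is left out in turn. Irf4 lay at 7.35 and 6.74, Sdc1 at -2.17 and -1.83, and S1pr2 at 0.02 and 0.07.

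Genes of the same stages outside the 9 members gave the setting. In the lymphoma genotype comparison 0 genes passed the QLF test among 16 tested follicular and marginal zone genes, 11 germinal centre genes, 12 plasma cell genes, 11 costimulation and SLAM genes, 11 genes that BCL6 represses and 6 that BLIMP1 represses. LRT also passed 0 in each of these lists. At an unadjusted p under 0.05 stood 2, 1, 2, 0, 1 and 0 genes of those lists in that order, beside 5.56% of all genes higher and 2.97% lower. Tnfrsf13c was lower, and S1pr3, Il21r, Igj, Cd28 and Cd69 were higher in EμMyc/Casp2-/- tumors. Cd28, which is also in the T cell list, was at 23.4 CPM in EuMycC2ko215 and at most 3.75 in another lymphoma, and Cd69 at 24.0 and at most 6.76. Of these 6 genes Igj alone kept an unadjusted p under 0.05 without EuMycC2ko215. The median log2 fold changes of the 6 lists lay between -0.12 and 0.44, beside -0.03 for all genes. Gene by gene, Igj, the antibody joining chain, was at 123 CPM in EuMycC2ko239 and 148 in EuMycC2ko245, against 4.28 to 40.7 in the other 5 lymphomas. Il21r and Fas were highest in EuMycC2ko215 at 98.8 and 24.2 CPM.

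Defining genes of the germinal centre and of plasma cells were low. Rgs13, a signalling regulator of germinal centre B cells, was at no more than 0.334 CPM in any lymphoma. Tnfrsf17 (BCMA), a receptor of plasma cells, was at 0.605 CPM or less. Genes of mature B cells were mixed over the 7 lymphomas. Cd22 was at 113 to 521 CPM, lowest in EuMyc743b, and Spib at 121 to 677 CPM, lowest in EuMycC2ko215. Cr2 was at no more than 1.17 CPM in any EμMyc tumor, and Fcer2a at no more than 0.706 CPM outside EuMycC2ko239. No stage is named from these genes. Against neuroblastomas, 18.3% of all genes were higher and 27.8% lower in EμMyc tumors by the QLF test. The numbers of genes tested in each list are those given above. There, 12 follicular and marginal zone genes were higher and 1 lower, with Cd22 at 6.39 on the log2 scale (QLF FDR 1.01e-08). Of the germinal centre genes 6 were higher and 2 lower. Basp1, a neuronal gene as well, fell by 6.71 and Spib rose by 9.46 on the log2 scale (QLF FDR 1.79e-11 and 6.29e-08). Of the genes on the plasma cell list 8 were higher and 0 lower, with Irf8 at 4.28 and Slamf7 at 7.56 (QLF FDR 1.34e-08 and 8.57e-07). Irf8 is not particular to plasma cells, so its level does not mark them. Of the costimulation and SLAM genes 10 were higher and 0 lower, among them the SLAM family genes Slamf6 at 7.02 and Ly9 at 4.56 (QLF FDR 7.12e-10 and 5.16e-09). All 6 tested BLIMP1 targets were higher, Pax5 by 9.69 and Myc, which is the transgene here, by 7.44 (QLF FDR 4.88e-09 and 6.49e-09), while BCL6 targets split into 5 higher and 3 lower, Cd44 at 3.50 and Cdkn1b at -1.21. Between the Casp2-/- groups the 6 lists, in the order above, had 11, 6, 11, 10, 7 and 6 genes higher and 1, 1, 0, 0, 3 and 0 lower. Of all genes, 19.7% were higher and 26.6% lower there.

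Marker genes of other cell types were examined in the same comparison. All 12 tested T cell genes had higher levels in EμMyc/Casp2-/- tumors, with a median log2 fold change of 3.03. Of these, 11 had an unadjusted p under 0.05, beside 5.56% of all genes that were higher at that p. By the QLF test 0 passed, beside 0.141% of all genes, while LRT passed 5, beside 1.44%. Without EuMycC2ko215 all 12 were still higher, but the median was 1.17 and 0 passed the QLF test. In that fit 1 of them, Zap70, had an unadjusted p under 0.05, beside 2.73% of all genes that were higher. Without EuMycC2ko245 6 passed the QLF test, where 163 of all genes tested did. With all tumors Cd8a had a log2 fold change of 5.13 (QLF FDR 0.140), and without EuMycC2ko215 one of 1.29. Zap70 had 2.57 (QLF FDR 0.0554), and 2.58 without that tumor, and Zap70 was at 66.4 to 74.3 CPM in all 3 EμMyc/Casp2-/- and at 4.14 to 28.1 in the EμMyc tumors. The follicular dendritic and stromal list had 6 of 7 tested genes higher and a median of 1.24, with 0 passing by either test, and a median of 0.83 without EuMycC2ko215. The B cell list had 4 of 10 higher and a median of -0.14. The part of these cells in the members' levels was not tested.

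The genes most like each member were found over the 7 lymphomas, as a description, by the smallest root mean square (RMS) difference between mean-centred log2 CPM. The nearest to Bcl6 were Tspan33 (RMS 0.349), Dmpk and Chdh. Tspan33, a tetraspanin gene of activated B cells, was at 8.58 CPM in EuMycC2ko215, 5.42 in EuMycC2ko239 and 0.394 to 1.62 in the other 5 lymphomas, the order seen for Bcl6. Icosl lay nearest to Dnase1l3 (RMS 0.411), Crym and Tspan33. For Cr2, Slamf1 was nearest (RMS 1.11), before Pydc3 and Fstl5. Fstl5 was at 0 CPM in the EμMyc tumors and EuMycC2ko245 and at most 1.58 CPM in a lymphoma. Crym was at no more than 0.342 CPM in those same tumors, so both matches rest on few reads. Only tested genes were searched, so Fcer2a was not a candidate. Slamf1 lay nearest to Slc14a1 (RMS 0.691), Lta and Gimap7, S1pr2 to Asah2 (RMS 0.251), Kirrel and Parm1, Prdm1 to Pla2r1 (RMS 0.156), Rtn4r and Serpinb6b, and Sdc1 to Fpr2 (RMS 0.274), Tns3 and Plxnd1. Irf4 ranged by just 1.17 on the log2 scale over the lymphomas and was not matched.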

How the data were processed

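Poly(A) RNA of frozen tumors (RNA integrity number above 7) was sequenced by the authors (HiSeq 2000, 50 bases, single-end). Reads passed FastQC, and STAR aligned them to mm10/GRCm38 and counted them over genes. Versions and the annotation release are not given in the sources used here. The deposited values are raw counts, not normalized, in 3 columns: strand ignored, first strand and second strand. The second strand column was used. It held 48.8 to 49.3% of stranded reads in every tumor, so the libraries behaved as unstranded and this column holds about 1 of every 2 gene reads.

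These counts were tested with edgeR 4.0.16 under R 4.3.3 (TMM, quasi-likelihood F test, QLF), keeping genes over 1 CPM in at least 3 tumors, with 1 model of 4 group means over all 15 tumors. A gene was called at an FDR (Benjamini-Hochberg) below 0.05 with a log2 fold change beyond 1 in either direction. The study's tables give likelihood ratios, so edgeR's likelihood ratio test was an alternative, as were DESeq2 1.42.0, RLE size factors, no filter, the other count columns, fits of only the groups compared, and leaving out each tumor. The SE is the log2 fold change divided by the root of F. CPM values are TMM-scaled, and log2 CPM has a prior count of 2. Intervals and floors cover counting error only. The QLF test, LRT and DESeq2 were run on simulated data for the comparisons of 1 group with another, but not for the interaction. The outcome is not given here.

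Each library is a separate mouse. Chi-square per degree of freedom was 17.0 to 81.6 in the 21 within-group pairs, far above sampling noise. Gene positions come from GENCODE M21. Named genes were all 9 members in every comparison, the label checks Casp2, Myc and Mycn, the called genes of each other list in comparisons of genotypes (up to 4), up to 2 genes with the smallest p per list between tumor types, and the 3 nearest genes of each tested member whose log2 CPM ranged over more than 2 in lymphomas. Other genes were named after their values were seen, and some genes that the rule names are not reported here. Members and lists were chosen with earlier results of these data known.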

Additional observations from a re-analysis of the deposited data

Results flagged for a closer look

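In 27 groups of 4 tumors, a tumor was marked where its gap to the nearest other tumor was too large a share of the group's range (above Dixon's 95% critical value). For normally distributed values chance alone does this in about 1 of 20 groups. CPM values need not be so distributed, and some lay near the floor, so that rate may not hold here. The EμMyc/Casp2-/- group was too small for this rule and was not examined. In all, 4 groups were marked. Sdc1 was at 33.7 CPM in EuMyc743b and at 3.15 to 4.37 in the other EμMyc tumors, and S1pr2 was at 17.3 CPM in the same tumor and at 4.33 to 6.37 in the others. Without EuMyc743b the genotype log2 fold change in lymphomas was 1.95 for Sdc1 and 1.31 for S1pr2, from 0.42 and 0.70 with it. S1pr2 was at 11.8 CPM in MYCN332 and at 6.91 to 7.26 in the other Th-MYCN tumors. Cr2 was at 1.73 CPM in MYCNC2ko144 and at 0.244 or less in the other Th-MYCN/Casp2-/- tumors, and without it the genotype difference of Cr2 in neuroblastomas was -0.69 in place of 1.49.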

How the results depend on the processing

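In the lymphoma genotype comparison 0 members passed with the QLF test and 2, Cr2 and Icosl, with LRT and with DESeq2. The cause was not tested. Leaving out each tumor gave 0 to 2, the 2 being Cr2 and Icosl without EuMycC2ko245. Between the Casp2-/- groups 6 members passed, and 2 to 6 with each tumor left out, 2 without EuMycC2ko239, 3 without MYCNC2ko118 or MYCNC2ko176, and 4 without MYCN235, MYCN391, MYCNC2ko144 or MYCNC2ko180. There 5 passed with no filter (Fcer2a then being called, Bcl6 and Prdm1 not), 5 with either strand and 4 with the first strand. Between the wild type groups 3 passed in every fit but that of only the groups compared, where 2 passed, without Slamf1. The neuroblastoma genotype comparison and the interaction gave 0 in every fit. The fit of only the groups compared does not exist for the interaction, which uses all groups.

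Directions changed for values that passed no test. On the log2 scale, Sdc1 in the neuroblastoma genotype comparison was -0.020 with the first strand, S1pr2 between wild type groups was -0.034 with DESeq2 and with RLE size factors, and Prdm1 there was 0.11 with either strand and 0.26 with the first strand. Leaving out each tumor moved log2 fold changes across 0 for Bcl6 (-0.55 to 0.017) and Cr2 (-0.69 to 2.03) in the neuroblastoma genotype comparison, for Irf4 (-0.11 to 0.32) and Sdc1 (-0.34 to 1.95) in that of lymphomas, for Prdm1 (-0.62 to 0.27) and S1pr2 (-0.59 to 0.25) between wild type groups, for S1pr2 between the Casp2-/- groups (-0.56 to 0.52), and in the interaction for S1pr2 (-0.64 to 0.66) and Sdc1 (-0.43 to 1.86). No paired analysis was possible because each tumor came from a different mouse and the labels give no replicate numbers. The marker lists without single EμMyc/Casp2-/- tumors were examined after seeing the data, and 1 to 11 T cell genes had an unadjusted p under 0.05, 1 without EuMycC2ko215. EuMycC2ko215 had the fewest reads, and levels under 0.585 CPM could not be told from 0 there.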
